A study of Homo sapiens with 8 samples.

Results

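NCI-H929 was compared with MM.1S in the empty vector cultures, that is, at the baseline of each line with no added gene. Both are established human lines of multiple myeloma, a cancer of antibody-secreting plasma cells. NCI-H929 carries a t(4;14) translocation and MM.1S a t(14;16), and each moves oncogenes next to the immunoglobulin heavy chain locus. The comparison used NCI-H929 empty vector replicates 1 and 2 and MM.1S empty vector replicates 1 and 2, which are 4 of the 8 messenger RNA libraries of the series. Every one of these cultures had been transduced by lentivirus with a vector holding no insert, 72 hours before, and grown in RPMI1640 with fetal bovine serum. The other 4 libraries carry a CTBP2 vector and entered no test here, apart from 2 alternative fits. The labels call the libraries of a group biological duplicates and say no more of their origin, so p-values measure the spread between these libraries. There is 1 line per translocation: a difference between translocations and a difference between these cell lines cannot be told apart. Values are FPKM as deposited by the authors, that is, fragment counts scaled to transcript length and library total, which can be compared between genes per length.

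As background, myeloma cells keep the program of the plasma cell. IRF4, PRDM1 and XBP1 shut down the B cell program and drive secretion, and antigen presentation by MHC class II is normally lost on the way from B cell to plasma cell. Primary translocations add a driver to this program. The t(4;14) turns on FGFR3, a receptor tyrosine kinase, and WHSC1 (also called NSD2 or MMSET), a histone methyltransferase, while the t(14;16) turns on MAF, a leucine zipper transcription factor. Cases of both kinds usually express a D cyclin out of turn, and the MAF group is known for CCND2, the integrin chain ITGB7 and the chemokine receptor CCR1. XBP1 passed as higher in NCI-H929 without NCI-H929 replicate 1, at 0.92 (limma adjusted p = 0.0381).

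The 3 line markers followed the labels in all 4 libraries. FGFR3 (Entrez 2261) reached 13.8 and 21.7 FPKM in NCI-H929 and stayed at 0.0442 and 0.057 FPKM in MM.1S. MAF (Entrez 4094) was at 163 and 143 FPKM in MM.1S and still at 18.3 and 19.9 FPKM in NCI-H929, and CCND2 (Entrez 894), which encodes cyclin D2, measured 94.6 and 115 FPKM in MM.1S against 0.0298 and 0.0592 FPKM in NCI-H929. Each of the markers thus separated the lines with no overlap. CTBP2, the gene carried by the other vector, was at 0.213 and 0.201 FPKM in MM.1S and at 0.148 and 0.184 FPKM in NCI-H929. In the CTBP2 arm, the replicate 2 libraries went against their line labels for these markers. FGFR3 stood at 22.2 FPKM where the label gives MM.1S, and at 0.0399 FPKM where it gives NCI-H929. No value below rests on them, except the fit of all 8 libraries, in which 5 genes passed.

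The table held 25906 genes, of which 11580 reached 1 FPKM in at least 2 of the 4 libraries and were tested, while 14326 were not. Differences are NCI-H929 minus MM.1S on the log2(FPKM + 1) scale, which understates the change of low genes. A gene is called higher or lower in NCI-H929 where limma gave a Benjamini-Hochberg adjusted p under 0.05. By that rule 6617 genes passed, or 57.1% of those tested: 2854 (24.6%) were higher in NCI-H929 and 3763 (32.5%) lower. Past a stricter test against a 2-fold difference (limma treat) there were 1289 genes (11.1%), 591 (5.1%) higher and 698 (6.03%) lower. The libraries of the lines did not overlap for 9239 genes (79.8%). The filter itself admitted 799 genes through MM.1S alone and 656 through NCI-H929 alone, with no library of the other line at 1 FPKM, and such genes had to differ. A count within a gene group is therefore read against these shares.

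The median difference over all tested genes was -0.11, and small differences are read relative to it. The median absolute difference between the lines was 0.56, against 0.183 between the MM.1S replicates and 0.177 between those of NCI-H929. Across genes, the replicates correlated at r = 0.985 and 0.984 and the lines at 0.810 to 0.826. The split of calls depended on the scaling. With library totals made equal after leaving out immunoglobulin and small RNA genes, 1959 genes were higher and 5305 lower, a share of 27.0% higher against 43.1% as deposited, and the median moved to -0.39. Without MM.1S replicate 1, 4360 genes passed. Each library held an estimated 16000000 to 19800000 fragments, judged from the spacing of its low values. A pseudocount of 0.1 in place of 1 widened the differences of genes near 0 in 1 line, as for FGFR3, from 4.12 to 6.85. Small RNA genes took 7.44% of all FPKM in NCI-H929 replicate 1 and 19.5 to 21.2% in the other libraries.

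**Figure D1:**
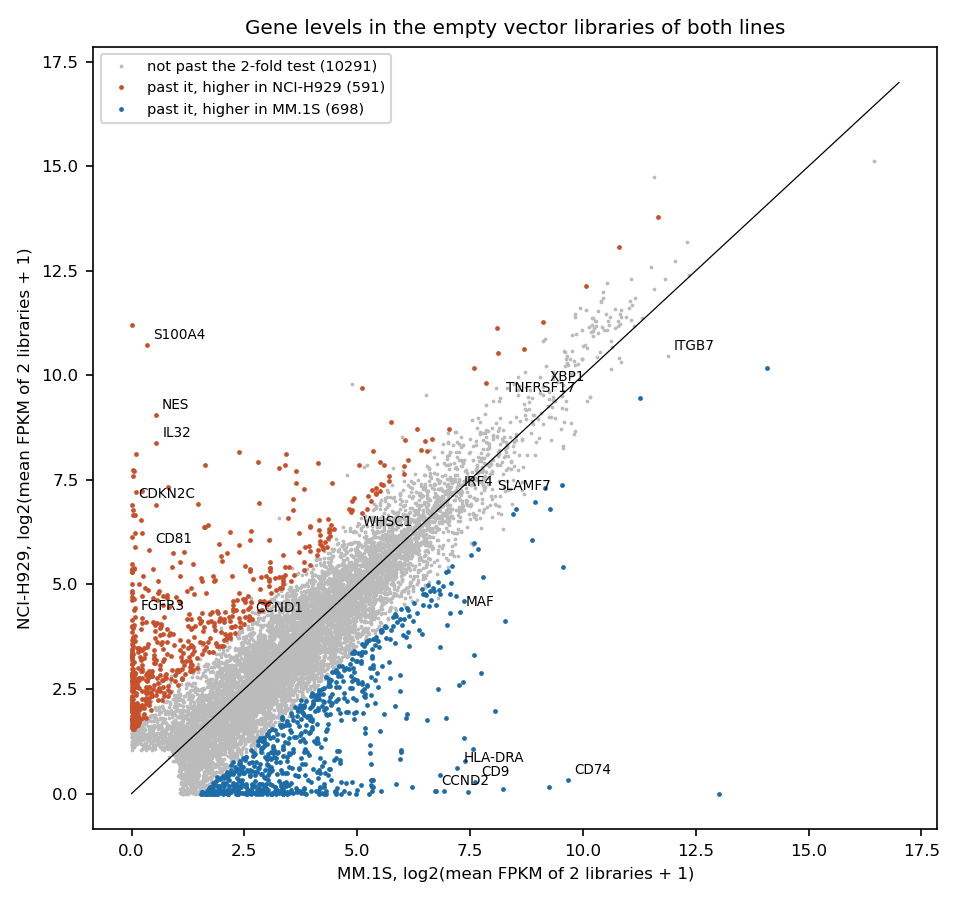
Mean level of each tested gene in MM.1S (x axis) and NCI-H929 (y axis), both as log2(mean FPKM of 2 libraries + 1); 1 point is 1 gene, the line marks equal levels, and colours mark the 591 genes higher and 698 genes lower in NCI-H929 past the 2-fold test. IRF4 and XBP1 lie near the line, while S100A4 and NES lie at the left edge and CD74 and CCND2 at the bottom edge.

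The translocation genes differed on each side as named above, and the second gene of the t(4;14) did so less steeply. WHSC1 (Entrez 7468) was at 32.9 and 28 FPKM in MM.1S and at 65 and 85.6 FPKM in NCI-H929, a 2.47-fold higher mean, with a difference of 1.27 (SE 0.19, limma adjusted p = 0.000615). It was thus expressed in both lines, unlike FGFR3, whose difference was 4.12 (SE 0.21, limma adjusted p = 1.18e-06). LETM1, a mitochondrial gene next to WHSC1 on chromosome 4, went the other way, with a difference of -0.94. MAF differed by -2.93 (SE 0.17, limma adjusted p = 2.14e-06). Its mean was 8.0-fold higher in MM.1S, and the NCI-H929 libraries lay well above 0. MAFA, the related factor of a rarer translocation, was under the filter, at no more than 0.0506 FPKM in any of the 4 libraries. WWOX, the gene that the chromosome 16 breakpoints disrupt, was slightly higher in NCI-H929, at 1.4 and 1.28 FPKM in MM.1S and at 2.65 and 2.7 FPKM in NCI-H929, with a difference of 0.65. WWOX no longer passed with equal totals (limma adjusted p = 0.0657).

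The D cyclins, which start the cell cycle with their partner kinases, differed one by one. CCND2 differed by -6.66 (SE 0.17, limma adjusted p = 3.21e-08) and was near 0 in both NCI-H929 libraries. CCND1 (Entrez 595) was higher in NCI-H929, at 18.5 and 16 FPKM in NCI-H929 and at 3.16 and 6.96 FPKM in MM.1S, a difference of 1.66 (SE 0.28, limma adjusted p = 0.00102). The replicates of MM.1S stood apart for CCND1, but both lay below both NCI-H929 libraries. CCND3 was at 25.7 and 29.3 FPKM in MM.1S and at 31.8 and 26.4 FPKM in NCI-H929 and did not pass, with a difference of 0.07 and a 95% interval of -0.32 to 0.47. Per length, CCND3 lay above CCND1 in both NCI-H929 libraries and below CCND2 in both MM.1S libraries. Of the 11 genes listed for the translocations and the D cyclins, 8 were tested, with 4 higher and 3 lower in NCI-H929.

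Genes that the literature ties to MAF were lower in NCI-H929 for the most part. Of 8 listed genes, all 8 were tested, 6 were lower and 0 higher, with a median of -1.48 against -0.11 over all genes. CX3CR1 and RND3, 2 of the 6, entered through MM.1S alone and had to be lower. ITGB7 (Entrez 3695), the integrin chain that pairs with alpha 4 or alpha E, was at 4029 and 3475 FPKM in MM.1S and at 1241 and 1578 FPKM in NCI-H929, a difference of -1.42 (SE 0.26, limma adjusted p = 0.00178). Both lines expressed it far above FGFR3, MAF or the D cyclins, and the libraries did not overlap. CCR1, a receptor for the chemokine CCL3, was at 93.1 and 85.8 FPKM in MM.1S and at 35.4 and 25.8 FPKM in NCI-H929, a difference of -1.53 (SE 0.19). CX3CR1, the fractalkine receptor, was at 8.61 and 12.3 FPKM in MM.1S and at 0.0163 and 0.0183 FPKM in NCI-H929. NUAK1, a kinase of the AMPK family, differed by -2.08 and RND3, a small GTPase, by -1.83. DEPTOR, an inhibitor of mTOR often named as a MAF target, was at 68.4 and 51.3 FPKM in MM.1S and at 55.1 and 66.8 FPKM in NCI-H929 and did not pass, with a 95% interval of -0.42 to 0.49 for the difference. ITGB7 no longer passed without MM.1S replicate 1 (limma adjusted p = 0.0685). CCL3 passed as lower in NCI-H929 with equal totals and without NCI-H929 replicate 1, at -1.90 and -3.16 (limma adjusted p = 0.0305 and 0.000836).

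Genes listed as associated with the t(4;14) did not lean towards NCI-H929. Of 7 genes, 6 were tested, 1 was higher and 3 were lower, with a median of -0.73. Through the filter, 1 entered by MM.1S alone and 1, JAM3, by NCI-H929 alone, which set their direction. JAM3, a junctional adhesion molecule, was the higher one, at 6.6 and 6.92 FPKM in NCI-H929 and at 0.866 and 0.825 FPKM in MM.1S, a difference of 2.07 (SE 0.15). SERPINE2, a protease inhibitor, and SULF2, a heparan sulfatase, lay on the MM.1S side, with differences of -1.60 and -0.96.

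The core plasma cell factors did not pass the test. IRF4 (Entrez 3662), the factor on which myeloma cells depend, was at 154 and 143 FPKM in MM.1S and at 132 and 160.3 FPKM in NCI-H929. PRDM1 (BLIMP1), which represses the B cell program, was at 61.5 and 52.8 FPKM in MM.1S and at 53.1 and 59.4 FPKM in NCI-H929. XBP1, the factor of the unfolded protein response, was at 503 and 603 FPKM in MM.1S and at 629 and 1043 FPKM in NCI-H929. The libraries of the lines overlapped for IRF4 and PRDM1 and lay apart for XBP1, and the 95% intervals of their differences were -0.45 to 0.40, -0.42 to 0.37 and -0.07 to 1.19. IKZF1, IKZF3 and POU2AF1 did not pass either, with differences of -0.19, -0.24 and -0.40. Of 26 listed factors 25 were tested, 7 were higher, 6 were lower and 12 did not pass, with a median of -0.03. The calls, at 13 of 25, were a share near that of all genes. IKZF3 passed as lower in NCI-H929 with equal totals, at -0.55 (limma adjusted p = 0.0175). POU2AF1 passed as lower in NCI-H929 under quantile normalization and with equal totals, at -0.53 and -0.72 (limma adjusted p = 0.00769 and 0.000657). XBP1 passed as higher in NCI-H929 without NCI-H929 replicate 1, at 0.92 (limma adjusted p = 0.0381).

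Around that core, several factors differed strongly. ELL2, an elongation factor that supports immunoglobulin secretion, was at 50.4 and 40.8 FPKM in NCI-H929 and at 8.13 and 6.67 FPKM in MM.1S, a difference of 2.47 (SE 0.18, limma adjusted p = 8.68e-06). BMI1, a Polycomb subunit, was at 89.9 and 97.6 FPKM in NCI-H929 and at 22.9 and 16.2 FPKM in MM.1S, a difference of 2.22 (SE 0.20). BHLHA15 (MIST1), which shapes the secretory apparatus, was also higher in NCI-H929, by 1.78. MYC (Entrez 4609), the growth-driving factor, was lower in NCI-H929, at 189.9 and 188 FPKM in MM.1S and at 115 and 92.9 FPKM in NCI-H929, with a difference of -0.87 (SE 0.19, limma adjusted p = 0.00408). ETS1, a factor known to hold back plasma cell differentiation, was at 10.3 and 10.2 FPKM in MM.1S and at 0.299 and 0.806 FPKM in NCI-H929, a difference of -2.87 (SE 0.19). KLF2, KLF6 and RUNX3 were lower too, by -1.14, -1.33 and -0.85. KLF6 no longer passed without MM.1S replicate 1 (limma adjusted p = 0.0546). MYC no longer passed without MM.1S replicate 1 and without MM.1S replicate 2 (limma adjusted p = 0.0563 and 0.0528).

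Several factors of the B cell stage were near 0 in both lines, and those that were tested differed in both directions. Of 25 listed genes only 16 reached the filter. PAX5, EBF1, SPIB and BCL6 stayed at or under 0.377 FPKM in every one of the 4 libraries. Of the tested genes, 8 were lower in NCI-H929 and 3 higher, with a median of -0.23. Of these, 3 entered through MM.1S alone and 1 through NCI-H929 alone, and their direction was set by the filter. IRF8, a partner of PU.1 in B cells, was at 3.11 and 3.3 FPKM in MM.1S and at 0.0193 and 0 FPKM in NCI-H929. IRF5 was at 43.8 and 40.1 FPKM in MM.1S and at 12.1 and 12.9 FPKM in NCI-H929, TCF4 at 15.3 and 11.5 FPKM in MM.1S and at 1.77 and 1.9 FPKM in NCI-H929, and both had higher levels in both MM.1S libraries, with differences of -1.67 (SE 0.16) and -2.33 (SE 0.18). FOXP1 and LEF1 were also lower in NCI-H929, by -1.72 and -1.73. The E protein inhibitors ID3 and ID1 ran the other way, while ID2, also one, was lower in NCI-H929, by -0.50 (SE 0.18, limma adjusted p = 0.0442). ID3 was at 92.2 and 61.9 FPKM in NCI-H929 and at 5.55 and 5.03 FPKM in MM.1S and ID1 at 29.4 and 24.6 FPKM in NCI-H929 and at 2.96 and 1.26 FPKM in MM.1S, with differences of 3.61 (SE 0.21, limma adjusted p = 2.16e-06) and 3.22 (SE 0.25, limma adjusted p = 1.42e-05). TCF3, which encodes the E proteins E12 and E47 that the ID proteins bind, did not pass, at a difference of 0.17.

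Most tested genes of MHC class II presentation had higher messenger levels in MM.1S. Of 18 listed genes, 14 were tested, 10 were lower in NCI-H929 and 2 higher, with a median of -1.74. Past the 2-fold test there were 8 lower and 1 higher. Of the tested genes 8 entered through MM.1S alone, so their direction was set by the filter. CIITA is the coactivator that class II genes need. It acts at the X and Y boxes upstream of these genes, which the RFX complex (RFX5, RFXAP and RFXANK) and NF-Y occupy. The 150 bases before the start site of 5 of the genes that were lower in NCI-H929 are shown. HLA-DRB1, HLA-DMA, HLA-DMB and HLA-DOB were chosen because they hold both motifs searched, and CD74 because of its large difference, although it holds one of them. They are printed from RefSeq on GRCh38.p14, 5′ to 3′ on the gene's strand, with capitals marking CTGATGAT, as the core of an X box, and ATTGG or its reverse complement CCAAT, as the core of a Y box. RFX5 passed as higher in NCI-H929 under a median-of-ratios rescale, at 0.50 (limma adjusted p = 0.0255). RFXANK passed as lower in NCI-H929 with equal totals, at -0.63 (limma adjusted p = 0.00674).

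HLA-DRB1, chr6:32589849-32589998, minus strand: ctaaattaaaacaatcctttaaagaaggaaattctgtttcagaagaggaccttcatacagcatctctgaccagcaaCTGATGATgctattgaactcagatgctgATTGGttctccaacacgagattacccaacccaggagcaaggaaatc
HLA-DMA, chr6:32953098-32953247, minus strand: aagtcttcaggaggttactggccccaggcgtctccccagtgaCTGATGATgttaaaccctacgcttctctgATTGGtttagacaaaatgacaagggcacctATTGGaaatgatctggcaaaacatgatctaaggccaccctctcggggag
HLA-DMB, chr6:32941029-32941178, minus strand: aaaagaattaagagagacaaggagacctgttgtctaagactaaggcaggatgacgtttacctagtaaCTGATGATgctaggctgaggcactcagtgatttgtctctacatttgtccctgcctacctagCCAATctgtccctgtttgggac
HLA-DOB, chr6:32817003-32817152, minus strand: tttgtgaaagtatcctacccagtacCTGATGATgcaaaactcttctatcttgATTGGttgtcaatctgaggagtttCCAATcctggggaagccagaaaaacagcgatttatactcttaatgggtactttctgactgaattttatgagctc
CD74, chr5:150412911-150413060, minus strand: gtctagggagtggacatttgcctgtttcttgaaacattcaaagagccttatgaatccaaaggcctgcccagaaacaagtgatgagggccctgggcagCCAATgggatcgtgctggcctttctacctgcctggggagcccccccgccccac

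The letters of both motifs were chosen after these promoters had been seen, and each was searched on both strands with no overlap between them. Of the 18 listed genes, 15 had an entry in the promoter table. CTGATGAT was found in 5 of them (HLA-DRB1, HLA-DRB5, HLA-DMA, HLA-DMB and HLA-DOB) and ATTGG in 11, and all 5 held both. The 15 genes had 20 windows between them, of which 5 held CTGATGAT, and a gene was counted if any of its windows held the motif. Over all 35116 promoter windows of the same length, 0.333% held CTGATGAT, 23.522% held ATTGG and 0.091% both. These are shares of windows and not of genes. CD74 held CCAAT and no CTGATGAT, and other spellings of an X box were not searched. The start of the Y core nearest to the X core lay 27 to 29 bases downstream of it in HLA-DRB1, HLA-DMA and HLA-DOB and 61 bases downstream in HLA-DMB. HLA-DPB1, also lower in NCI-H929, held ATTGG and no CTGATGAT, and HLA-DPA1 held neither. A match describes the letters of the reference and not binding in these cells. CIITA, HLA-DRA and CTSS had no entry.

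CD74 (Entrez 972), the invariant chain that guides class II molecules through the cell, was at 908 and 726 FPKM in MM.1S and at 0.264 and 0.238 FPKM in NCI-H929. The difference was -9.34 (SE 0.17, limma adjusted p = 1.18e-08), and no other gene that met the naming rule was lower by more. HLA-DRA (Entrez 3122), the constant alpha chain of the DR molecule, was at 188 and 107 FPKM in MM.1S and at 0.674 and 0.388 FPKM in NCI-H929, a difference of -6.55 (SE 0.26, limma adjusted p = 2.93e-07). MM.1S replicate 1 lay above MM.1S replicate 2 for CD74 and HLA-DRA, and both lay far above NCI-H929. The DR and DP chains HLA-DPA1, HLA-DRB1 and HLA-DPB1 were at or under 0.26 FPKM in both NCI-H929 libraries. In MM.1S they were at 35.9 and 21.2 FPKM, 12.1 and 5.73 FPKM and 4.55 and 2.28 FPKM. HLA-DMA, a chain of the peptide editor HLA-DM, was at 17.4 and 13.5 FPKM in MM.1S and at 1.38 and 1.36 FPKM in NCI-H929, a difference of -2.78 (SE 0.17). The partner HLA-DMB differed by -1.60 and HLA-DOB, a chain of the DM inhibitor, by -1.63. HLA-DOA and the DQ genes stayed at or under 0.234 FPKM in both lines, and HLA-DRB5 at or under 0.505 FPKM. HLA genes are polymorphic and alike, so reads can be lost or shared between HLA-DRB1 and HLA-DRB5, and levels of single HLA genes are uncertain.

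CIITA (Entrez 4261) itself was at 3.46 and 2.35 FPKM in MM.1S and at 0.0424 and 0.0931 FPKM in NCI-H929, a difference of -1.86 (SE 0.18, limma adjusted p = 4.2e-05). The RFX subunits did not follow it as a group. RFX5 was at 39.1 and 38.7 FPKM in MM.1S and at 48.7 and 53 FPKM in NCI-H929 and RFXANK at 30 and 40.5 FPKM in MM.1S and at 27.9 and 27.8 FPKM in NCI-H929, and neither passed, while RFXAP was lower in NCI-H929, by -0.79. The processing enzymes of the class II route were higher in NCI-H929. IFI30 (GILT), a thiol reductase of the lysosome, was at 176 and 155 FPKM in NCI-H929 and at 38.8 and 54.8 FPKM in MM.1S, a difference of 1.82 (SE 0.21, limma adjusted p = 0.000123), and CTSS, the protease that trims the invariant chain, differed by 0.97 (SE 0.20). In the CTBP2 replicate 1 libraries, which the test did not use, CD74 was at 678 FPKM in MM.1S and 0.22 FPKM in NCI-H929, and CIITA at 1.24 and 0.258 FPKM. CTSS no longer passed without MM.1S replicate 2 and without NCI-H929 replicate 2 (limma adjusted p = 0.0562 and 0.0519). RFX5 passed as higher in NCI-H929 under a median-of-ratios rescale, at 0.50 (limma adjusted p = 0.0255). RFXANK passed as lower in NCI-H929 with equal totals, at -0.63 (limma adjusted p = 0.00674).

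Messengers for MHC class I presentation, which shows peptides from inside the cell to CD8+ T cells, were found in both lines. Of 23 listed genes all 23 were tested, 10 were lower in NCI-H929, 5 were higher and none passed the 2-fold test in either direction. The median was -0.27. B2M, the light chain of every class I molecule, was at 1621 and 1549 FPKM in MM.1S and at 1176 and 1107 FPKM in NCI-H929 and did not pass, with an interval of -0.99 to 0.04. HLA-B was lower in NCI-H929, at 381 and 423 FPKM in MM.1S and at 161 and 142 FPKM in NCI-H929, and HLA-C was higher, at 485 and 466 FPKM in NCI-H929 and at 206 and 212 FPKM in MM.1S, with differences of -1.40 (SE 0.19) and 1.18 (SE 0.19). The heavy chains therefore went in opposite directions, and the match of each line's alleles to the reference is not known. HLA-E, the ligand of the NK receptor NKG2A, did not pass, at 0.06. TAPBP (tapasin), which loads peptides, was at 109 and 112 FPKM in MM.1S and at 40.5 and 43.8 FPKM in NCI-H929, a difference of -1.37 (SE 0.16, limma adjusted p = 0.000167). TAP1 and TAP2, the peptide pump, were lower by smaller amounts, -0.62 and -0.77. PSME1 and PSME2, which form the proteasome activator PA28, were higher in NCI-H929, by 0.81 and 1.08. NLRC5, the class I counterpart of CIITA, was low in both lines, at 1.1 and 0.985 FPKM in MM.1S and at 2.4 and 1.86 FPKM in NCI-H929. NLRC5 no longer passed with equal totals, without MM.1S replicate 1 and without MM.1S replicate 2 (limma adjusted p = 0.0725, 0.0517 and 0.0684). PSME1 no longer passed without MM.1S replicate 1, without MM.1S replicate 2 and without NCI-H929 replicate 1 (limma adjusted p = 0.111, 0.0743 and 0.0685). PSME2 no longer passed without MM.1S replicate 1 and without MM.1S replicate 2 (limma adjusted p = 0.0884 and 0.0527). TAP1 no longer passed without MM.1S replicate 2, without NCI-H929 replicate 1 and without NCI-H929 replicate 2 (limma adjusted p = 0.0703, 0.0562 and 0.0572). TAP2 no longer passed without MM.1S replicate 1, without MM.1S replicate 2 and without NCI-H929 replicate 2 (limma adjusted p = 0.0594, 0.0698 and 0.0568). B2M passed as lower in NCI-H929 under quantile normalization, with equal totals and without a variance trend, at -1.09, -0.80 and -0.47 (limma adjusted p = 0.000339, 0.000833 and 0.0278).

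**Figure D2:**
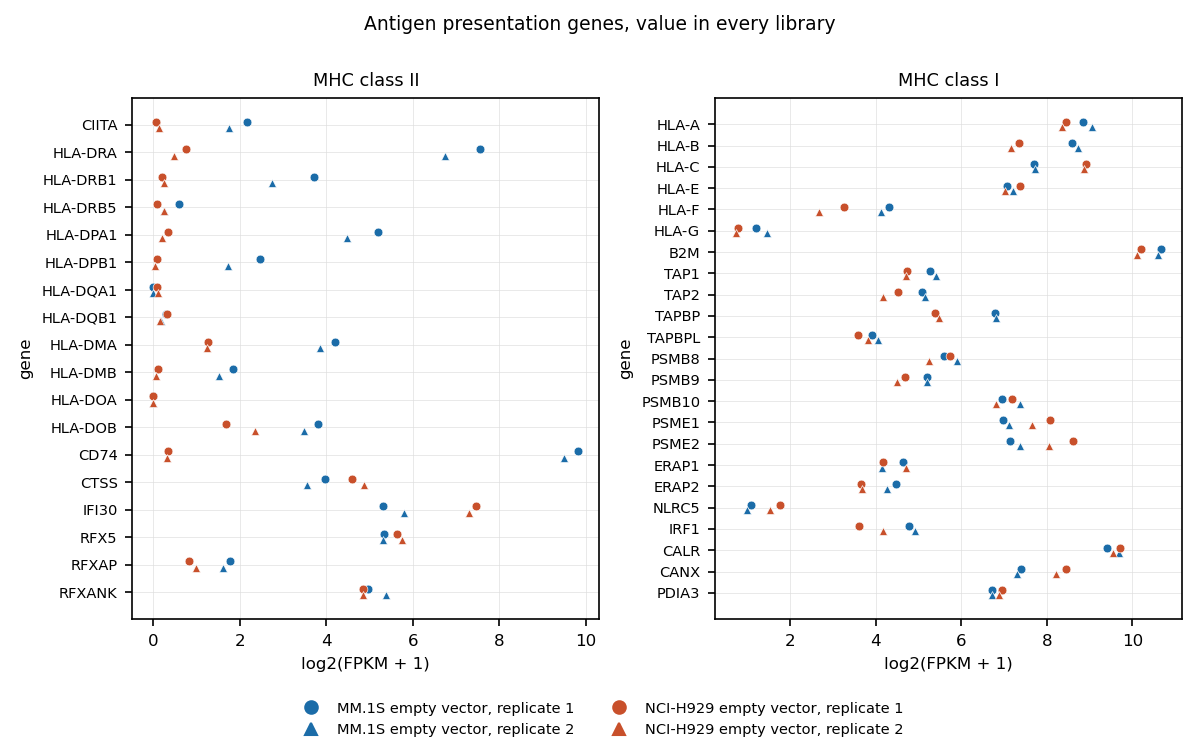
Level of the listed MHC class II (left) and class I (right) genes in each of the 4 empty vector libraries, as log2(FPKM + 1) on the x axis; circles are replicate 1 and triangles replicate 2, blue MM.1S and orange NCI-H929. CD74 and HLA-DRA lie above 100 FPKM in both MM.1S libraries and under 1 FPKM in both NCI-H929 libraries, and no class I gene passed the 2-fold test.

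Ligands that NK and T cells read were fewer, with 11 of 20 tested, 6 lower and 2 higher in NCI-H929. The filter admitted 3 of those tested through MM.1S alone, PVR among them, and 2 through NCI-H929 alone, PVRL2 among them. Their direction was set by the filter. PVR (CD155), the ligand of DNAM-1 and TIGIT, was at 8.59 and 7.84 FPKM in MM.1S and was listed at 0 in both NCI-H929 libraries (limma adjusted p = 6.78e-07). Its relative PVRL2 (CD112) had the opposite pattern, at 2.76 and 2.28 FPKM in NCI-H929 and at 0.0563 and 0 FPKM in MM.1S. CD276 (B7-H3) was at 13.2 and 13.7 FPKM in MM.1S and at 1.18 and 1.01 FPKM in NCI-H929 and ICOSLG, the ligand of ICOS, at 15.8 and 16.4 FPKM in MM.1S and at 4.13 and 3.38 FPKM in NCI-H929, and both were lower in NCI-H929, by -2.79 (SE 0.15) and -1.85 (SE 0.16). MICB, a stress-induced ligand of NKG2D, was lower in NCI-H929 by -0.83. CD274 (PD-L1) was under the filter, at 0.507 and 0.568 FPKM in MM.1S and at 0.0858 and 0.0161 FPKM in NCI-H929.

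Among surface antigens of plasma cells, the targets of current antibodies and engineered T cells differed by moderate amounts. TNFRSF17 (BCMA, Entrez 608), the receptor for APRIL, was at 744 and 664 FPKM in NCI-H929 and at 270.1 and 299 FPKM in MM.1S, a difference of 1.30 (SE 0.20, limma adjusted p = 0.000674). SLAMF7, the target of elotuzumab, was lower in NCI-H929, at 243 and 252 FPKM in MM.1S and at 110.3 and 163 FPKM in NCI-H929, a difference of -0.88 (SE 0.22). GPRC5D, an orphan receptor targeted by bispecific antibodies, was also lower, at 105 and 69.8 FPKM in MM.1S and at 39.7 and 42.8 FPKM in NCI-H929, by -1.04 (SE 0.22). CD38 was at 27.7 and 17.7 FPKM in MM.1S and at 12.6 and 18.4 FPKM in NCI-H929 and SDC1 (CD138) at 271 and 342 FPKM in MM.1S and at 192 and 341 FPKM in NCI-H929, and neither passed. The interval of the CD38 difference was -1.07 to 0.05 and that of SDC1 -0.90 to 0.40. CD28 did not pass either. SLAMF7 no longer passed with no filter, without MM.1S replicate 1, without MM.1S replicate 2 and without NCI-H929 replicate 1 (limma adjusted p = 0.0505, 0.0961, 0.105 and 0.0676). CD28 passed as lower in NCI-H929 with equal totals, at -0.46 (limma adjusted p = 0.0418). CD38 passed as lower in NCI-H929 with equal totals, at -0.82 (limma adjusted p = 0.0269).

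Of the 28 listed surface antigens 24 were tested, 13 were lower in NCI-H929 and 7 higher, with a median of -0.86. The filter admitted 4 of them through MM.1S alone and 3 through NCI-H929 alone. Past the 2-fold test, 7 were lower and 4 higher. TNFRSF13B (TACI), the other receptor for APRIL, went against BCMA, at 91.4 and 121 FPKM in MM.1S and at 0 and 0.0908 FPKM in NCI-H929, a difference of -6.67 (SE 0.18, limma adjusted p = 5.39e-08). NCI-H929 thus had more BCMA messenger and almost no TACI messenger, while MM.1S held both. CD70, the ligand of CD27, was at 52.1 and 71.4 FPKM in MM.1S and at 0.975 and 1.17 FPKM in NCI-H929, a difference of -4.91 (SE 0.19). SLAMF6 and CD40 were at 17.8 and 16.6 FPKM and 10.2 and 7.71 FPKM in MM.1S and under 1 FPKM in NCI-H929. CD200 and its receptor CD200R1 had opposite patterns, with CD200 at 4.5 and 6.87 FPKM in NCI-H929 and at 0.136 and 0.0555 FPKM in MM.1S and CD200R1 at 7.75 and 7.62 FPKM in MM.1S and at 0.213 and 0.0795 FPKM in NCI-H929. Of the Fc receptor-like genes, FCRL2 was at 28.8 and 29.2 FPKM in NCI-H929 and at 0.332 and 0.122 FPKM in MM.1S, a difference of 4.62 (SE 0.16, limma adjusted p = 1.64e-07), and FCRLA and FCRL5 were higher by 2.28 and 1.97. CD48, the partner of CD244, was abundant in both lines and higher in NCI-H929, by 1.39. The complement regulators CD46 and CD59 were lower in NCI-H929, by -1.68 and -2.63, while CD55, also one, was higher, at 7.36 and 4.88 FPKM in NCI-H929 and at 4.45 and 2.44 FPKM in MM.1S, by 0.69 (SE 0.25). CD55 no longer passed with a pseudocount of 0.1, with no filter, with equal totals, without MM.1S replicate 1, without MM.1S replicate 2, without NCI-H929 replicate 1 and without NCI-H929 replicate 2 (limma adjusted p = 0.0501, 0.177, 0.194, 0.0536, 0.343, 0.307 and 0.0656).

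B cell receptor genes had no common direction. Of 32 listed genes 15 were under the filter, among them MS4A1 (CD20), CD22 and PTPRC (CD45), each at no more than 0.238 FPKM in any of the 4 libraries. All 17 tested genes passed, 9 higher and 8 lower in NCI-H929. Past the 2-fold test 6 were lower and 1 higher. The 6 lower genes entered through MM.1S alone, and CD81, the higher one, through NCI-H929 alone, so the filter set the direction of these large differences. LAPTM5 (Entrez 7805), a lysosomal protein that lowers surface B cell receptor, was at 570.2 and 649.5 FPKM in MM.1S and at 0.0702 and 0.156 FPKM in NCI-H929, a difference of -9.10 (SE 0.16, limma adjusted p = 1.18e-08). SYK, the kinase next to the B cell receptor, and BLNK, its adaptor, were at 15.1 and 10 FPKM and 18.8 and 20.4 FPKM in MM.1S and under 1 FPKM in NCI-H929. BTK, LYN, PLCG2 and PTPN6, also of that route, were higher in NCI-H929, by 1.92, 0.91, 1.07 and 0.84. Within this route, therefore, SYK and BLNK messenger was near 0 in the line with more BTK and PLCG2. The tetraspanins crossed over as well: CD81 was at 56.6 and 55.5 FPKM in NCI-H929 and at 0.253 and 0.342 FPKM in MM.1S, and CD82 was at 48.6 and 72.1 FPKM in MM.1S and at 0.67 and 0.904 FPKM in NCI-H929. Their differences were 5.46 (SE 0.15, limma adjusted p = 6.03e-08) and -5.08 (SE 0.21, limma adjusted p = 3.67e-07). CD37, also a tetraspanin, was lower in NCI-H929 by -1.30. BTK no longer passed without MM.1S replicate 2 (limma adjusted p = 0.0841). PLCG2 no longer passed without MM.1S replicate 2 (limma adjusted p = 0.06).

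Of 51 listed cytokine and growth factor receptors 31 were tested, 14 lower and 8 higher in NCI-H929. Their median was -0.40 against -0.11 over all genes. Among all genes tested, 32.5% were lower and 24.6% higher. The filter admitted 3 of the receptors through MM.1S alone and 4 through NCI-H929 alone, which set their direction. The cytokine IL-6, a growth factor of myeloma cells, binds IL6R and signals through IL6ST, and both chains are needed on a cell that answers to it. IL6R was at 88.8 and 82.2 FPKM in MM.1S and at 73.5 and 92 FPKM in NCI-H929 and did not pass, with an interval of -0.47 to 0.36, while IL6ST was at 34.8 and 32 FPKM in MM.1S and at 4.67 and 6.09 FPKM in NCI-H929, a difference of -2.44 (SE 0.17, limma adjusted p = 7.35e-06). The test thus found a difference in the signalling chain and none in the binding chain. IL2RG (Entrez 3561), the common gamma chain of several interleukin receptors, was at 183 and 191 FPKM in MM.1S and at 0.833 and 1.34 FPKM in NCI-H929, a difference of -6.50 (SE 0.18, limma adjusted p = 5.13e-08). Of its partners IL21R was lower, by -1.68, while IL2RA, IL2RB and IL7R stayed at or under 0.172 FPKM in every one of the 4 libraries. The interferon gamma receptor was split, since IFNGR2 was at 37.5 and 39.9 FPKM in MM.1S and at 5.13 and 3.15 FPKM in NCI-H929 and IFNGR1 at 7.64 and 7.94 FPKM in MM.1S and at 9.04 and 6.68 FPKM in NCI-H929, with a call for the first only. CSF2RB, the beta chain of the GM-CSF receptor, and MERTK, a receptor for apoptotic cells, were lower by -1.92 and -3.11. On the NCI-H929 side lay BMPR2, a receptor for bone morphogenetic proteins, by 1.80, EPOR by 1.2, and the FGFR3 relatives FGFR1 and FGFR4 by 0.86 and 1.01. FGFR2 went the other way, by -1.46. FGFR1, FGFR2 and FGFR4 stayed at or under 2.97 FPKM in every library, so FGFR3 had the highest level per length of the FGF receptors in NCI-H929.

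In the TNF family, 12 of 24 listed genes were tested, 6 lower and 2 higher. The filter admitted 3 through MM.1S alone, TNFSF13 among them, and 1, TNFRSF12A, through NCI-H929 alone, which set their direction. TNFRSF1A, the main receptor for TNF, was at 36.7 and 45.3 FPKM in MM.1S and at 3.25 and 3.67 FPKM in NCI-H929, a difference of -3.23 (SE 0.17, limma adjusted p = 1.34e-06), and FAS was at 5.72 and 7.07 FPKM in MM.1S and at 0.941 and 1.28 FPKM in NCI-H929, a difference of -1.81 (SE 0.17). The TRAIL receptors did not share that direction: TNFRSF10A did not pass and TNFRSF10B was higher in NCI-H929, by 0.97. TNFRSF12A, the receptor for TWEAK, was higher in NCI-H929, at 13.7 and 4.52 FPKM in NCI-H929 and at 0.26 and 0.206 FPKM in MM.1S. TNFSF13 (APRIL), the ligand of BCMA and TACI, was at 5.6 and 7.57 FPKM in MM.1S and at 0.27 and 0.354 FPKM in NCI-H929, a difference of -2.52 (SE 0.17).

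Adhesion genes were changed one by one, with 27 of 43 tested, 13 lower and 8 higher in NCI-H929, a median of -0.26, and 6 lower and 2 higher past the 2-fold test. The filter admitted 4 through MM.1S alone, CD9 and GPR56 among them, and 1, ITGA7, through NCI-H929 alone, which set their direction. CD9 (Entrez 928), a tetraspanin that binds integrins, was at 193 and 195 FPKM in MM.1S and at 0.218 and 0.189 FPKM in NCI-H929, a difference of -7.34 (SE 0.15, limma adjusted p = 1.47e-08). GPR56 (ADGRG1), an adhesion G protein-coupled receptor, was at 22.9 and 21.2 FPKM in MM.1S and at 0 and 0.0443 FPKM in NCI-H929, a difference of -4.49 (SE 0.15). ICAM3, F11R (JAM-A) and CD99 were lower in NCI-H929 by -2.10, -2.28 and -2.14, and SELPLG (PSGL-1), the ligand of P-selectin, by -1.50. NCAM1 (CD56), which is absent from normal plasma cells and common in myeloma, was at 15.4 and 13.8 FPKM in NCI-H929 and at 1.09 and 1.97 FPKM in MM.1S, a difference of 2.64 (SE 0.20, limma adjusted p = 1e-05). ITGA7, a laminin receptor chain, was at 7.1 and 8.3 FPKM in NCI-H929 and at 0.288 and 0.522 FPKM in MM.1S. Of the chains that ITGB7 and ITGB1 pair with, ITGA4 was higher in NCI-H929, at 47.3 and 65.2 FPKM in NCI-H929 and at 25.7 and 17.4 FPKM in MM.1S, a difference of 1.35 (SE 0.23), and ITGAE was lower, by -0.92. So ITGA4 and ITGB7, the chains of integrin alpha 4 beta 7, differed in opposite directions, and ITGB1 did not pass, at -0.10. CD44, the hyaluronan receptor, was higher in NCI-H929, by 1.15, and ITGAL by 1.07. ITGB2, the partner of ITGAL, was at or under 0.137 FPKM in both lines.

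Receptors for homing to bone marrow were lower in NCI-H929, with 10 of 21 listed genes tested, 7 lower, 0 higher and a median of -1.54. Of the tested genes 3 entered through MM.1S alone and had to be lower. CXCR4 (Entrez 7852), the receptor for CXCL12 that holds plasma cells in the marrow, was at 34.2 and 44.6 FPKM in MM.1S and at 0.098 and 0.394 FPKM in NCI-H929, a difference of -5.02 (SE 0.19, limma adjusted p = 2.8e-07). CCR2, a receptor for CCL2, was at 11.3 and 8.59 FPKM in MM.1S and at or under 0.043 FPKM in NCI-H929. S1PR2, a receptor for sphingosine 1-phosphate, and CXCR3 were lower by -2.16 and -1.49. CCL3 (MIP-1 alpha), a chemokine tied to bone disease in myeloma, was at 766 and 927 FPKM in MM.1S and at 840.0 and 93.4 FPKM in NCI-H929. It did not pass, and the NCI-H929 replicates differed from each other by more than the lines did. Reads of its near-identical copy CCL3L3 may be shared with it. CCL3 passed as lower in NCI-H929 with equal totals and without NCI-H929 replicate 1, at -1.90 and -3.16 (limma adjusted p = 0.0305 and 0.000836).

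The NCI-H929 replicates stood apart for a set of early response genes. FOS was at 0.337 and 0.326 FPKM in MM.1S and at 47.7 and 0.948 FPKM in NCI-H929, EGR1 at 0.113 and 0.0991 FPKM in MM.1S and at 8.52 and 1.36 FPKM in NCI-H929, and DUSP1 at 4.7 and 6.06 FPKM in MM.1S and at 38.3 and 6.74 FPKM in NCI-H929. NCI-H929 replicate 1 was the high library for each of these as for CCL3. Of these, EGR1 passed as higher in NCI-H929, by 2.10 (SE 0.51), and DUSP1 did not pass. FOS did not reach the filter, since 1 library only was above 1 FPKM. IER2, JUNB and ZFP36 were high in both NCI-H929 libraries, with IER2 at 148 and 92.5 FPKM in NCI-H929 and at 1.87 and 1.69 FPKM in MM.1S. JUN and ATF3 went the other way and passed as lower in NCI-H929. JUN was at 13.5 and 12 FPKM in MM.1S and at 7.21 and 0.939 FPKM in NCI-H929 and ATF3 at 13.9 and 16.6 FPKM in MM.1S and at 3.88 and 3.47 FPKM in NCI-H929, with differences of -1.78 (SE 0.53) and -1.79 (SE 0.16). The early response genes thus had no common direction, and FOS, EGR1 and DUSP1 were high mainly in 1 NCI-H929 library. EGR1 no longer passed with no filter, without MM.1S replicate 1 and without MM.1S replicate 2 (limma adjusted p = 0.0939, 0.137 and 0.137). JUN no longer passed with no filter, without MM.1S replicate 1 and without MM.1S replicate 2 (limma adjusted p = 0.144, 0.214 and 0.182). CCL3 passed as lower in NCI-H929 with equal totals and without NCI-H929 replicate 1, at -1.90 and -3.16 (limma adjusted p = 0.0305 and 0.000836). DUSP1 passed as higher in NCI-H929 without NCI-H929 replicate 2, at 2.63 (limma adjusted p = 0.00137).

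NF-kB pathway genes that passed were all lower in NCI-H929. Of 29 listed genes 28 were tested, 17 were lower in NCI-H929 and 0 higher, 7 of them lower past the 2-fold test, with a median of -0.80 against -0.11 over all genes. Against a background of 32.5% lower among all genes tested, 17 of 28 were lower. The filter admitted 2 of the 28 through MM.1S alone, PLEK among them, and these had to be lower. TNFAIP3 (A20), a feedback inhibitor induced by NF-kB, was at 47.1 and 42.1 FPKM in MM.1S and at 2.15 and 1.46 FPKM in NCI-H929, a difference of -4.03 (SE 0.18, limma adjusted p = 5.19e-07). BIRC3 (cIAP2), also induced by NF-kB, was at 15.9 and 18.6 FPKM in MM.1S and at 1.43 and 0.888 FPKM in NCI-H929, a difference of -3.09 (SE 0.18, limma adjusted p = 2.45e-06). PLEK, a substrate of protein kinase C in blood cells, was at 18.5 and 18.2 FPKM in MM.1S and at 0.179 and 0.161 FPKM in NCI-H929. Regulators on both sides of the pathway were lower in NCI-H929. CYLD, which holds it back, differed by -1.88, and MAP3K14 (NIK) and IKBKE, which drive it, by -1.69 and -2.70. NFKB1 and NFKB2 were lower by -1.45 and -1.37, with NFKB2 at 75.1 and 97.6 FPKM in MM.1S and at 42.5 and 24.9 FPKM in NCI-H929. RELA, the main transactivating subunit, did not pass, at -0.08. The adaptors BCL10 and MALT1, which link antigen receptors to NF-kB, were lower, by -0.85 and -1.16. NFKB2 no longer passed without MM.1S replicate 2 (limma adjusted p = 0.0729). RELA passed as lower in NCI-H929 with equal totals, at -0.39 (limma adjusted p = 0.0343).

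The RAS and ERK pathway differed in both directions. NRAS, a GTPase that starts the cascade, was at 76.9 and 66.6 FPKM in NCI-H929 and at 18.6 and 15.7 FPKM in MM.1S, a difference of 2.0 (SE 0.17, limma adjusted p = 2.46e-05). Both NCI-H929 libraries lay well above both MM.1S libraries for it. MAPK3 (ERK1) was lower in NCI-H929, by -1.29. Targets and feedback inhibitors of ERK were divided. DUSP6 was at 49.9 and 41.3 FPKM in NCI-H929 and at 14.8 and 11.7 FPKM in MM.1S, ETV4 at 40.8 and 22.1 FPKM in NCI-H929 and at 0.169 and 0.0595 FPKM in MM.1S and SPRY4 at 2.81 and 2.45 FPKM in NCI-H929 and at 0.152 and 0.0615 FPKM in MM.1S. Their differences were 1.72 (SE 0.18, limma adjusted p = 8.64e-05), 4.80 (SE 0.26, limma adjusted p = 1.46e-06) and 1.71 (SE 0.15, limma adjusted p = 2.65e-05), and FOSL1 and DUSP5 were also higher, by 2.79 and 1.22. DUSP4 was lower, by -1.99, and SPRY1 did not pass. Over the list, 29 of 36 genes were tested, 11 higher and 8 lower, with a median of 0.30, which was -0.0046 with equal totals. Among those tested, 4 entered through NCI-H929 alone, ETV4 and SPRY4 among them, so their direction was set by the filter. DUSP5 no longer passed without MM.1S replicate 1 (limma adjusted p = 0.0584). SPRY1 passed as lower in NCI-H929 with equal totals and without MM.1S replicate 2, at -0.59 and -0.56 (limma adjusted p = 0.0267 and 0.044).

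In the JAK-STAT pathway 20 of 21 genes were tested, 9 higher and 4 lower, with a median of 0.32. Among all genes tested, 24.6% were higher and 32.5% lower. With equal totals 6 of the list were higher and 5 lower, and the median was 0.039. The filter set the direction of 1 that entered through MM.1S alone and of 2 through NCI-H929 alone, SOCS3 among them. STAT2, which carries type I interferon signals, was lower, at 35.6 and 30 FPKM in MM.1S and at 7.66 and 10.1 FPKM in NCI-H929, a difference of -1.78 (SE 0.19). SOCS3, a feedback inhibitor of cytokine signals, was at 2.68 and 1.89 FPKM in NCI-H929 and at 0.0434 and 0.0229 FPKM in MM.1S, a difference of 1.66 (SE 0.17). STAT4 was higher as well, by 1.54. The PIM kinases did not move together: PIM1 was at 34.9 and 42.4 FPKM in MM.1S and at 8.21 and 3.56 FPKM in NCI-H929, PIM3 was higher in NCI-H929, by 1.37, and PIM2, the most abundant of them, did not pass, at 474 and 451 FPKM in MM.1S and at 299 and 485 FPKM in NCI-H929.

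Of the PI3K and mTOR genes 24 of 26 were tested, 11 lower and 2 higher. Lower calls were also the more frequent among all genes tested, at 32.5% against 24.6% higher. The median of the list was -0.13, next to -0.11 over all genes. DDIT4 (REDD1), an inhibitor of mTORC1 induced by stress, was the large exception, at 161 and 147 FPKM in NCI-H929 and at 9.78 and 16.3 FPKM in MM.1S, a difference of 3.50 (SE 0.23, limma adjusted p = 4.74e-06). SGK1, a kinase related to AKT, was lower, by -2.29, and SESN1, a target of p53 that restrains mTORC1, by -2.04. AKT1 did not pass, with a difference of -0.09. AKT1 passed as lower in NCI-H929 with equal totals, at -0.40 (limma adjusted p = 0.0322).

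Among Wnt and Notch genes 24 of 37 were tested, 13 lower and 6 higher, with a median of -0.64. The filter admitted 5 through MM.1S alone, WNT5B and WNT10A among them, and 3 through NCI-H929 alone, JAG2 among them. Their direction was set by the filter. The Wnt ligand messengers WNT5B and WNT10A were found in MM.1S. WNT5B was at 42.2 and 48.2 FPKM in MM.1S and at 0.0723 and 0.0267 FPKM in NCI-H929 and WNT10A at 37.4 and 39.7 FPKM in MM.1S and at 0.219 and 0.0977 FPKM in NCI-H929, with differences of -5.46 (SE 0.16, limma adjusted p = 6.57e-08) and -5.09 (SE 0.16, limma adjusted p = 9.25e-08). DKK1, the Wnt inhibitor of myeloma bone disease, was low in both lines and under the filter, at 0.854 and 1.19 FPKM in MM.1S and at 0.598 and 0.297 FPKM in NCI-H929. AXIN2, a target of Wnt signals, was lower in NCI-H929, by -0.97. The Notch ligands were split, as JAG2 was at 20.2 and 14.2 FPKM in NCI-H929 and at 0.157 and 0.186 FPKM in MM.1S and JAG1 was lower in NCI-H929, by -1.14. NOTCH1 and NOTCH2 were lower, by -1.70 and -1.49, and so was the Notch target HES1, at 7.84 and 9.23 FPKM in MM.1S and at 0.997 and 1.0 FPKM in NCI-H929. NRARP and HEY1, also targets, were higher, by 1.31 and 0.81.

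**Figure D3:**
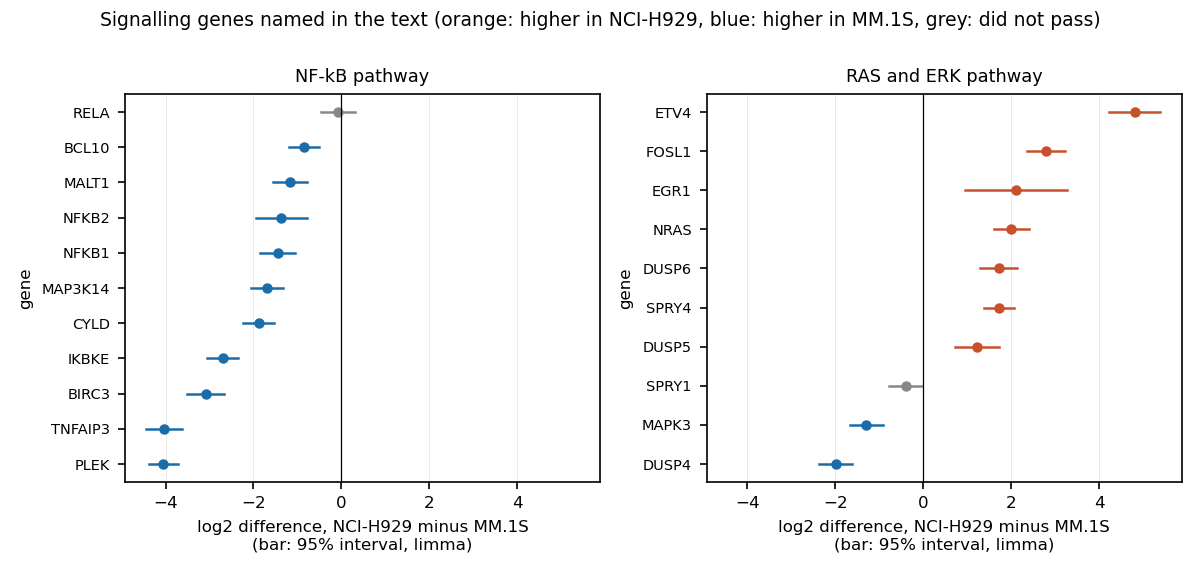
Difference between the lines for the tested genes of the NF-kB (left) and RAS and ERK (right) lists that the text names, NCI-H929 minus MM.1S on the log2(FPKM + 1) scale (x axis); points are limma differences of 2 against 2 libraries and bars their 95% intervals, orange where higher and blue where lower in NCI-H929, grey where the gene did not pass. TNFAIP3 and PLEK lie farthest to the left of 0 in the left panel, and ETV4 lies farthest to the right in the right panel.

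Among inhibitors of the cell cycle kinases, CDKN2C and CDKN2A were near 0 in MM.1S and entered the test through NCI-H929 alone. CDKN2C (p18), an inhibitor of the D cyclin kinases, was listed at 0 in both MM.1S libraries and was at 114 and 123 FPKM in NCI-H929 (limma adjusted p = 1.74e-08). CDKN2A, the locus of p16 and ARF, was at 42.3 and 38.4 FPKM in NCI-H929 and at 0.343 and 0.417 FPKM in MM.1S, a difference of 4.90 (SE 0.16, limma adjusted p = 1.13e-07). CDKN1A (p21), a target of p53, was higher in NCI-H929, by 1.17 (SE 0.29), and CDKN1B (p27) was lower, at 58.9 and 50.7 FPKM in MM.1S and at 14.7 and 15.4 FPKM in NCI-H929, a difference of -1.80 (SE 0.16). CDK4 and E2F1 did not pass. In the list, 18 of 19 genes were tested, with 5 higher and 5 lower, so the calls were no more frequent than among all genes. CDKN1A no longer passed with no filter, without MM.1S replicate 1 and without NCI-H929 replicate 1 (limma adjusted p = 0.0763, 0.132 and 0.114). CDK4 passed as lower in NCI-H929 under quantile normalization and with equal totals, at -0.43 and -0.67 (limma adjusted p = 0.0198 and 0.00187). E2F1 passed as lower in NCI-H929 with equal totals, at -0.59 (limma adjusted p = 0.00498).

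The BCL2 family, which sets the threshold for apoptosis, differed in both directions among its protective members. MCL1, on which many myeloma cells depend, was at 296 and 288 FPKM in NCI-H929 and at 97.3 and 88.7 FPKM in MM.1S, a difference of 1.64 (SE 0.18, limma adjusted p = 9.02e-05). BCL2, the target of venetoclax, was at 14 and 11.5 FPKM in MM.1S and at 0.737 and 0.536 FPKM in NCI-H929, a difference of -3.07 (SE 0.17, limma adjusted p = 1.62e-06). BCL2L1 (BCL-XL) was at 149.7 and 179 FPKM in MM.1S and at 20.6 and 26 FPKM in NCI-H929, a difference of -2.77 (SE 0.19, limma adjusted p = 6.07e-06). MM.1S thus held more BCL2 and BCL-XL messenger and NCI-H929 more MCL1. BCL2A1 and BCL2L2 were low and higher in NCI-H929, by 1.42 and 1.83. Of the BH3-only genes, which promote death, BCL2L11 (BIM) was at 27.2 and 31.7 FPKM in MM.1S and at 5.34 and 6.1 FPKM in NCI-H929, a difference of -2.18 (SE 0.16, limma adjusted p = 1.1e-05), and PMAIP1 (NOXA) and BBC3 (PUMA) were lower too, by -1.10 and -0.95. BIK was the exception, at 20.1 and 14 FPKM in NCI-H929 and at 0.86 and 2.12 FPKM in MM.1S. The effector BAX did not pass. Of 17 listed genes 14 were tested, 4 higher and 6 lower, with a median of 0.01 that turned to -0.30 with equal totals. The filter admitted 2 through MM.1S alone, BCL2 among them, and 2 through NCI-H929 alone, which set their direction. BAX passed as higher in NCI-H929 under a median-of-ratios rescale and without MM.1S replicate 2, at 0.58 and 0.75 (limma adjusted p = 0.0495 and 0.0471).

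Genes through which glucocorticoids and cereblon-binding drugs act did not pass the 2-fold test. NR3C1, the glucocorticoid receptor, was at 16 and 14 FPKM in MM.1S and at 7.94 and 8.68 FPKM in NCI-H929, a difference of -0.78 (SE 0.16), and CRBN, the receptor of the immunomodulatory drugs, was at 9.35 and 8.72 FPKM in MM.1S and at 9.0 and 10.2 FPKM in NCI-H929 and did not pass, with an interval of -0.28 to 0.44. CUL4A, which joins CRBN in its ubiquitin ligase, was lower in NCI-H929, by -1.07. Of the 8 genes on this list, all 8 were tested, 4 were lower and none was higher.

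**Figure D4:**
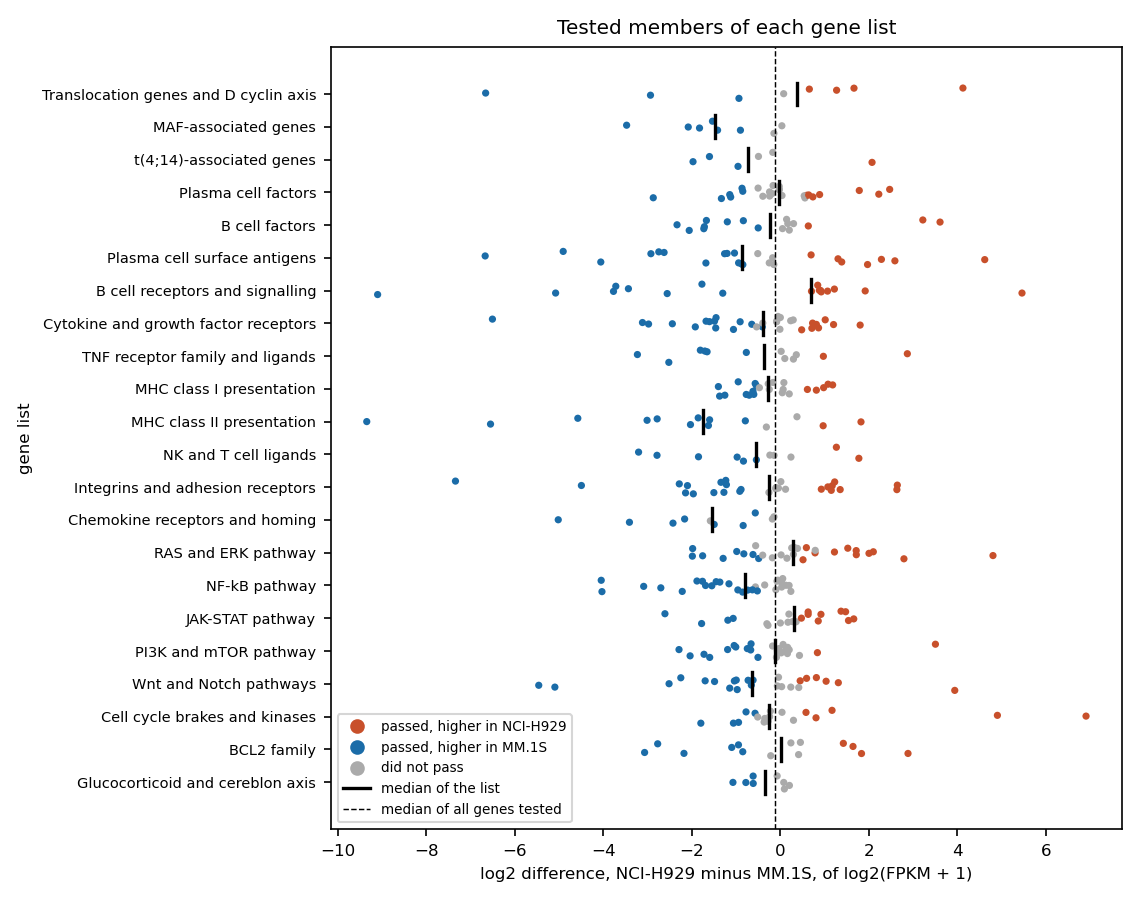
Difference between the lines for each tested gene of each list, NCI-H929 minus MM.1S on the log2(FPKM + 1) scale (x axis); 1 point is 1 gene, orange where higher and blue where lower in NCI-H929 with a limma adjusted p under 0.05, grey where it did not pass, with a bar at the median of the list and a dashed line at the median of all genes, -0.11. The medians of MHC class II, chemokine receptors, MAF-associated genes and NF-kB genes lie to the left of the dashed line, and that of the plasma cell factors lies next to it.

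Called genes that met the naming rule, which left out small RNA genes, were also ranked by the size of their difference. Genes higher in NCI-H929 by that ranking included S100A4 (Entrez 6275), a calcium-binding protein tied to cell motility, at 1595 and 1797 FPKM in NCI-H929 and at 0 and 0.526 FPKM in MM.1S, a difference of 10.42 (SE 0.22, limma adjusted p = 1.54e-08). NES (nestin), an intermediate filament of progenitor cells, was at 538 and 519.8 FPKM in NCI-H929 and at 0.496 and 0.403 FPKM in MM.1S, and IL32, a cytokine, was at 417 and 242 FPKM in NCI-H929 and at 0.311 and 0.602 FPKM in MM.1S. All of these were under 1 FPKM in both MM.1S libraries. Of the 15 genes, 6 are cancer-testis antigens, which are normally limited to the germ line. MAGEA4 was at 199 and 186 FPKM in NCI-H929 and at 0.036 and 0 FPKM in MM.1S, a difference of 7.57 (SE 0.15, limma adjusted p = 1.44e-08). MAGEA3 and MAGEA6, CTAG1B (NY-ESO-1), PAGE5 and SSX1 were at 95.7 FPKM or more in both NCI-H929 libraries. Most have close copies in the genome, so the reads of single members are uncertain. HCST (DAP10), the adaptor of NKG2D, was at 172 and 125 FPKM in NCI-H929 and at 0.337 and 0 FPKM in MM.1S. EEF1A2, a tissue-restricted elongation factor, PFKP, an enzyme of glycolysis, SLC2A5, the fructose transporter, and KCNK12, a potassium channel subunit, complete the group with CDKN2C, with differences of 7.66, 6.75, 6.52 and 6.35.

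On the MM.1S side the ranking began with CD74, LAPTM5 and PCP4, a calmodulin-binding peptide of neurons that was at 239 and 361 FPKM in MM.1S and at 0 and 0.141 FPKM in NCI-H929. QPCT, an enzyme that forms pyroglutamate, differed by -7.42 and ST14 (matriptase), a membrane protease, by -6.84, and the NCI-H929 libraries were at or under 0.0516 FPKM for both. ADM (adrenomedullin), a vasodilator peptide, was at 100.02 and 125 FPKM in MM.1S and at 0.486 and 0.228 FPKM in NCI-H929, a difference of -6.38 (SE 0.18, limma adjusted p = 6.57e-08). RASSF4, a RAS association domain protein, and LPXN (leupaxin), an adaptor at focal adhesions, were lower by -6.06 and -6.04. CRYBB1, a lens crystallin, was at 103 and 231 FPKM in MM.1S and at 0.482 and 0.937 FPKM in NCI-H929, with the MM.1S replicates apart from each other but both far above NCI-H929. JSRP1 was at 225 and 300.05 FPKM in MM.1S and at 2.59 and 3.27 FPKM in NCI-H929. The remaining members of the 15, CD9, TNFRSF13B, CCND2, HLA-DRA and IL2RG, were met above.

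**Figure D5:**
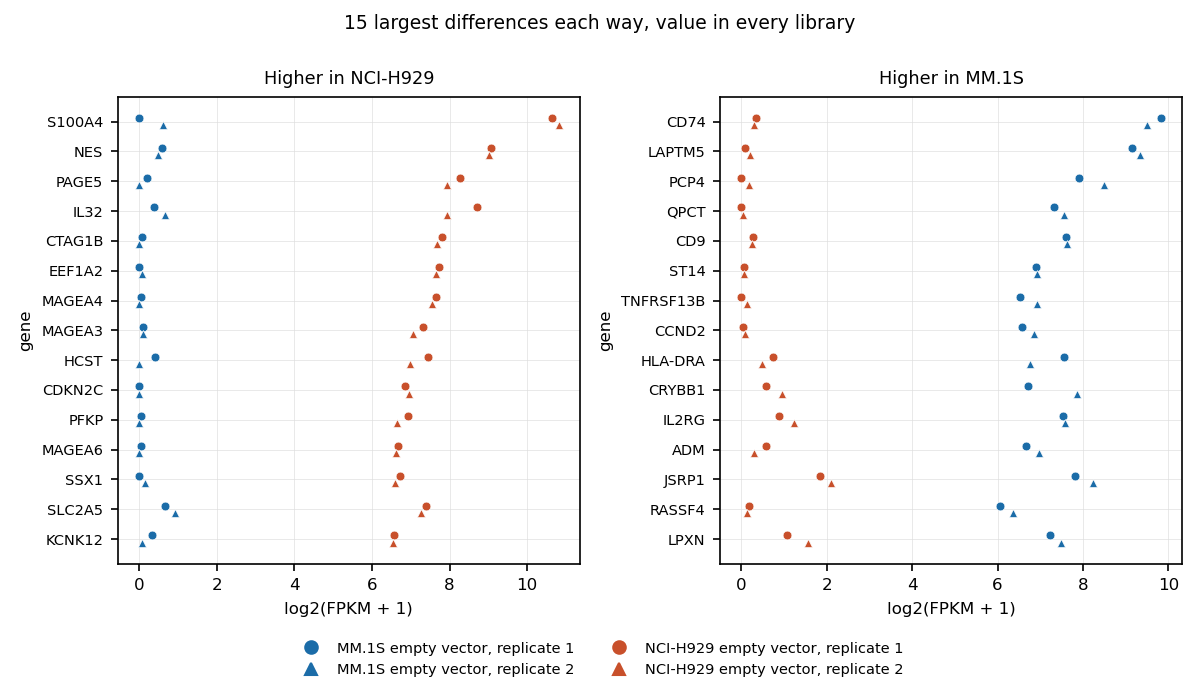
Level of the 15 genes with the largest difference each way under the naming rule, in each of the 4 empty vector libraries, as log2(FPKM + 1) on the x axis. Circles are replicate 1 and triangles replicate 2, blue MM.1S and orange NCI-H929. In the left panel both NCI-H929 libraries lie at 92.1 FPKM or more and both MM.1S libraries under 1 FPKM, and in the right panel both NCI-H929 libraries lie under 4 FPKM.

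Immunoglobulin messengers were represented by few genes. IGLL5, which shares sequence with the lambda light chain, was at 15848 and 18589.9 FPKM in MM.1S and at 1308 and 1006 FPKM in NCI-H929, a difference of -3.90 (SE 0.29, limma adjusted p = 9.48e-06). IGJ, the chain that joins polymeric IgA and IgM, was higher in NCI-H929, at 2788 and 3119 FPKM in NCI-H929 and at 1381 and 1204 FPKM in MM.1S. Of 18 listed genes, 4 were matched to a gene in the deposited values, and all 4 were tested. The others had no match, so the constant region genes of the list were not analysed here. IGJ no longer passed under quantile normalization, without MM.1S replicate 1 and without MM.1S replicate 2 (limma adjusted p = 0.0519, 0.0679 and 0.0938).

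Most markers of other cell types were at or near 0 in both lines. CD2, CD3D, CD8A, NCR1, KLRD1, CD14, LYZ, EPCAM, COL1A1 and VWF were each at or under 0.30 FPKM in all 4 libraries, so these markers of T cells, NK cells, monocytes, epithelium, fibroblasts and endothelium were absent or nearly so. All 5 NK cell, all 6 monocyte and all 5 fibroblast markers listed were under the filter, with summed levels from 0.149 to 1.19 FPKM in a library. Single listed genes were exceptions. KRT18 was at 18.2 and 13.8 FPKM in NCI-H929 and at 0.402 and 0.566 FPKM in MM.1S with KRT8 at or under 0.507 FPKM, and CD3E, PECAM1, HBA1 and HBB reached 1 FPKM in at least 2 libraries, with a highest value of 7.71 FPKM. The libraries are bulk RNA of cultures, and fewer expressing cells and less RNA per cell cannot be told apart in them.

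The CTBP2 replicate 1 libraries were not used in the test and followed their line labels, so they give a further measurement of both lines under another vector. Of the 2854 genes higher in NCI-H929, 2751 had the same sign there, and of the 3763 lower, 3551 did, or 95.2% of the called genes against 84.1% of all genes tested. With those 2 libraries added in a fit of 6, 6614 genes passed.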

How the data were processed

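Per the labels' protocols, messenger RNA of both lines went into TruSeq libraries. The tools listed in the submitters' processing notes, without their roles, are DESeq2 2.11.40.2, HTSeq 0.9.1, STAR 2.6.0b-1, Trimmomatic 0.36.5 and FastQC 0.11.7, with the build GRCh37 (hg19). The deposited table gives FPKM for each gene and library. Neither the tool behind the FPKM nor its annotation or use of strand is given in the sources used here, so overlapping genes cannot be told apart.

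Samples were grouped by title. Genes at 1 FPKM or more in 2 of the 4 empty vector libraries were kept, and log2(FPKM + 1) was tested with limma 3.58.1 in R 4.3.3 (eBayes with a trend, Benjamini-Hochberg adjusted p under 0.05, and treat at a log2 difference of 1), with 2 residual degrees of freedom per gene before moderation. No sample was dropped or imputed. The code was tested on simulated data.

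The named genes are the line check (FGFR3, WHSC1, MAF, CCND2, CCND1, ITGB7, CTBP2), the 15 largest called differences each way with libraries apart and 5 FPKM or more on average in the higher line, and key or called members of each list. Clone-style names, small RNA genes and immunoglobulin segments were left out of the ranking. Further list members named in the text were picked after their values were seen. The comparison, the gene lists and the rules were chosen with earlier results of these data known. Some list members count in the totals and are not reported here by name. Older symbols were matched by Entrez ID.

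Depth was estimated from low values of genes with a single transcript over 1500 bases. Of these values, 51.1 to 58.9% lay within 0.1 of a whole fragment (chance gives 20.0%), too few to recover counts. Alternatives changed the pseudocount, filter, scaling, variance model, libraries and block.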

Additional observations from a re-analysis of the deposited data

How the results depend on the processing

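Of the 202 called genes named, which leave out ID2, 180 passed under every alternative other than the 2-fold minimum and the fit of all 8 libraries. The other 22 lost the call under at least 1, as given beside them other than for CD3E and PECAM1. None of the 202 changed sign under any alternative run. The count of 6617 called genes lay between 4674 and 7264 under the other filters, pseudocount, scalings, variance model and the fit of 6 libraries. The split turned from more lower to slightly more higher under the median-of-ratios rescale, with 3286 higher and 3182 lower. With a minimum of 2-fold 1289 genes passed, 591 higher and 698 lower, and with all 8 libraries as labelled 5 passed, 1 higher and 4 lower, a fit that includes the CTBP2 replicate 2 libraries whose markers go against their labels. With 1 library left out, which leaves an arm with 1 sample assumed to vary like the other, 4360 to 5093 genes passed, 1839 to 2310 of them higher and 2521 to 2783 lower.

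The labels tie replicate numbers to nothing shared, and same-numbered libraries deviated together with r = 0.037 across genes, so no pairing was assumed. With the replicate block 6372 genes passed, 2715 higher and 3657 lower.

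Among genes that did not pass, the sign of 15 turned, and the cause was not tested. With equal totals the differences became -0.24 for CCND3, -0.21 for CRBN, -0.28 for DEPTOR, -0.26 for HLA-E, -0.15 for TCF3 and -0.29 for TNFRSF10A. Under the median-of-ratios rescale the differences became 0.035 for AKT1, 0.11 for IFNGR1, 0.072 for IL6R, 0.10 for IRF4, 0.022 for ITGB1, 0.10 for PRDM1 and 0.049 for RELA. Under quantile normalization the differences became -0.015 for DEPTOR, -0.094 for HLA-E and 0.15 for IFNGR1. With 1 library left out they ranged from -0.056 to 0.21 for CCND3, from -0.0043 to 0.16 for CRBN, from -0.17 to 0.24 for DEPTOR, from -0.12 to 0.24 for HLA-E, from -0.19 to 0.19 for IFNGR1, from -0.22 to 0.11 for IL6R, from -0.17 to 0.11 for IRF4, from -0.30 to 0.10 for ITGB1, from -0.63 to 0.068 for PIM2, from -0.13 to 0.087 for PRDM1, from -0.18 to 0.034 for RELA, from -0.66 to 0.16 for SDC1 and from -0.093 to 0.13 for TNFRSF10A. Precision is limited by 2 libraries per line, and genes near 1 FPKM rest on few fragments.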

Other observations

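Genes of small RNA stood outside the naming rule and are given as values chosen after they had been seen. MIR142, the gene of a microRNA of blood cells, was listed at 0 in both MM.1S empty vector libraries and was at 3364 and 1368 FPKM in NCI-H929. It was also listed at 0 in NCI-H929 CTBP2 replicate 1. MIR650, which lies in the immunoglobulin lambda locus, was at 8485 and 8044 FPKM in MM.1S and was listed at 0 in both NCI-H929 libraries. Such features are short, so few fragments give a high FPKM, and a library of long RNA does not measure mature microRNAs.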
